A study of Homo sapiens with 6 samples.

Results

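Retained intron transcripts are annotated transcripts of a gene that keep intronic sequence which other transcripts of the same gene splice out. All rows of the deposited transcript table with the biotype retained_intron were taken, 28087 of 206601 transcripts with a gene (222615 rows in all). They belonged to 9669 genes, among them 9211 of 19951 protein coding genes. The samples were 6 RNA-seq libraries labelled CCRF-SB, a lymphoblast-like line established from a B-lineage acute lymphoblastic leukaemia, grown in RPMI-1640 with 10% FBS and collected on day 5. For the 3 siControl libraries (genotype WT) the cells had received an empty vector. The 3 siANXA1 libraries (genotype ANXA1 down-regulated) were from puromycin-selected cells carrying an ANXA1-silencing RNA from a lentivirus, a knockdown in a selected population. Total RNA was used, and replicate numbers 1 to 3 are given in this order throughout.

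An intron is removed by the spliceosome, which recognizes a 5′ splice site that usually starts with GT and a 3′ splice site that usually ends with AG. Transcripts that keep an intron are often held in the nucleus, where they may be spliced later, and those that reach the cytoplasm frequently carry early stop codons and are open to nonsense-mediated decay. Erythroid and other blood cells are known for programmed intron retention, and many genes for splicing factors and their kinases control their own output through detained introns. Short reads from an intron do not tell a stable retained intron from a precursor that is still being spliced, and the estimated counts used here assign each read to whole annotated transcripts.

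Library depth, as counts with a gene, lay between 21333951 (siANXA1 replicate 2) and 44148505 (siANXA1 replicate 1). ANXA1, the targeted gene, stood at 3842, 3844 and 3772 CPM in siControl and 1572, 1646 and 1674 CPM in siANXA1 (CPM, counts relative to the TMM-scaled library), and 0 of its 8 annotated transcripts is a retained intron transcript, so the silenced gene itself adds nothing to the results below. Of 14 B-lineage marker genes, 9 were under 0.5 CPM in every library, and the 14 summed to between 2.99 and 6.80 CPM, with MS4A1 at 0 in 5 libraries. All 14 erythroid and megakaryocyte markers reached a mean of 1 CPM, and they summed to 856, 1534 and 1904 CPM in siControl and 6077, 4232 and 5276 CPM in siANXA1. Most markers that define the labelled cell type were thus at or near 0. On the first principal component of the transcripts, siControl replicates 1 and 2 and siANXA1 replicate 2 lay on one side and the other 3 libraries on the other, which does not follow the labels. What this division is was not tested.

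Of the 28087 transcripts, 8408 (29.9%) contained at least 1 whole intron of a coding transcript of the same gene, 19651 (70.0%) reached only part of the way into one, and 28 overlapped none. The median length was 740 bases, against 1578 bases for protein coding transcripts. The whole introns came to 9228 distinct introns, and 1802 of them were kept by 2 or more retained intron transcripts. They were short. Their median length was 248 bases (quartiles 120 and 565), whereas the 161560 other introns of the same genes had a median of 1786 bases (quartiles 595 and 5153). Introns of 150 bases or less made up 32.3% of the kept and 7.87% of the other introns. A kept intron had to lie inside 1 exon of an annotated member, and members had a median length of 740 bases. Long introns could thus seldom count as kept, and the other introns include those that members reach only in part. The difference in length is therefore in part set by the definition. Of the distinct kept introns, 97.5% began with GT and ended with AG, 1.37% began with GC, and the median GC content was 56.5%.

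**Figure D1:**
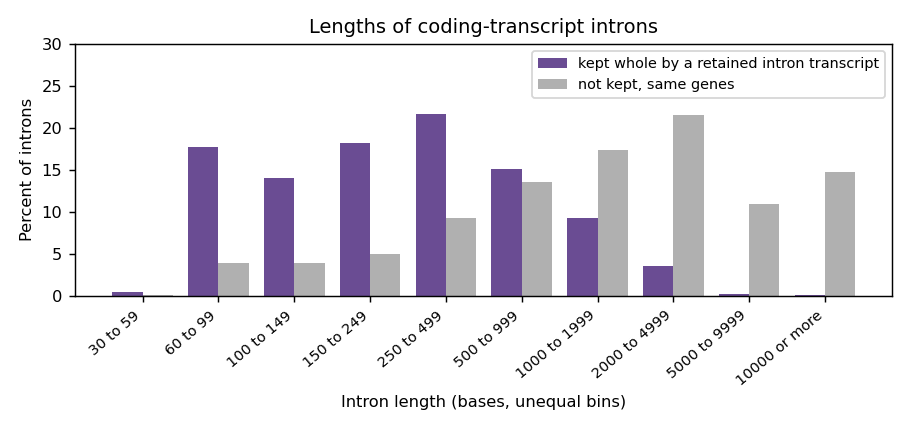
Percent of introns (vertical axis) by length in bases (horizontal axis, unequal bins), for the 9228 introns kept whole by a retained intron transcript and the 161560 other introns of the same genes. Kept introns pile up below 500 bases, and the others above 1000 bases.

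4 short kept introns are shown whole because the clearest difference between the groups and some of the most abundant members rest on them. Each is written 5′ to 3′ with 10 exon bases on either side, read from the GENCODE release 29 transcript (GRCh38) that keeps it, and the capitals mark the first 2 and last 2 bases of the intron. All 4 lie between coding exons. The HNRNPU intron (chr1:244862535-244862618, minus strand) has 84 bases, the GAPDH intron (chr12:6536791-6536919, plus strand) has 129, the RPS18 intron (chr6:33276067-33276175, plus strand) has 109 and the FARSA intron (chr19:12924808-12924903, minus strand) has 96.
HNRNPU intron 2: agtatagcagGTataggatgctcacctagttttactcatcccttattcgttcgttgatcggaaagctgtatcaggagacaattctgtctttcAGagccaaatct
GAPDH intron 4: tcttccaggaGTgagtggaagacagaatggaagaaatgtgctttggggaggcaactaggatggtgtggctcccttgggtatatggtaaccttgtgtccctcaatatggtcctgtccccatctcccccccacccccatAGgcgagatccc
RPS18 intron 4: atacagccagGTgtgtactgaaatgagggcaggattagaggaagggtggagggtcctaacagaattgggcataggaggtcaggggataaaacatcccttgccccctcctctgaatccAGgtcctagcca
FARSA intron 10: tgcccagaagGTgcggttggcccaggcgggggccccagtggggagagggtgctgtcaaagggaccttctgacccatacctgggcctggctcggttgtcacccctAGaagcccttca

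For longer kept introns of transcripts named below, only the 2 splice sites are shown, with 10 exon bases and the intron ends in capitals, so that their ends can be compared. EMC1 keeps an intron of 1065 bases (chr1:19219699-19220763, minus strand), HBG1 of 880 (chr11:5248488-5249367, minus strand), SRPK1 of 515 (chr6:35920529-35921043, minus strand), PISD of 191 (chr22:31621143-31621333, minus strand) and ARGLU1 of 2300 (chr13:106557132-106559431, minus strand). RACK1 (534 bases, chr5:181241640-181242173, minus strand) is included because its 5′ splice site starts with GC.
EMC1 intron 21, 5′ splice site: aacaaagcagGTgagaccct
EMC1 intron 21, 3′ splice site: ccggctggtgttttgcAGagaggagaac
HBG1 intron 2, 5′ splice site: gaacttcaagGTgagtccag
HBG1 intron 2, 3′ splice site: ctcctttcatctcaacAGctcctgggaa
SRPK1 intron 1, 5′ splice site: gagcggaaagGTgagcggtg
SRPK1 intron 1, 3′ splice site: catccctctctcctgcAGtgcttgcgct
PISD intron 6, 5′ splice site: ttcccaccagGTgggtcact
PISD intron 6, 3′ splice site: tctgctcctactccacAGccgcgtcgtg
ARGLU1 intron 2, 5′ splice site: agctagagagGTaacgctcg
ARGLU1 intron 2, 3′ splice site: acatatcctcccctttAGgaggaagaac
RACK1 intron 1, 5′ splice site: atctcacaacGCaagtagct
RACK1 intron 1, 3′ splice site: caaactcctccctctcAGgggcaccacc

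A count was present for 23497 of the 28087 transcripts in at least 1 library and for 18344 in every library, and 4590 were at 0 throughout. Most were scarce. 6738 reached a mean of 1 CPM, 1122 a mean of 10 CPM and 63 a mean of 100 CPM. The 10 most abundant held 14.6% of all retained intron counts and the 100 most abundant 32.9%. Of the 63 most abundant, 61.9% contained a whole intron, and their kept introns had a median GC content of 43.3%.

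By counts, the leading member was ENST00000464920 of ENO1, which encodes the glycolytic enzyme enolase, at 2902, 2825 and 3035 CPM in siControl and 2949.8, 2458 and 2354 CPM in siANXA1. This transcript alone held 64.9, 64.8 and 72.6% in siControl and 75.9, 64.4 and 61.02% in siANXA1 of the counts of ENO1, and its mean level per length was 1919 TPM. ENST00000474249 of GAPDH, another glycolytic enzyme, whose 129-base intron is shown above, stood at 2616, 1207 and 1320.1 CPM in siControl and 1095, 1131 and 1106 CPM in siANXA1. SiControl replicate 1 lay above the other 5 libraries there, and those 5 ran from 1095 to 1320 CPM, with siControl replicates 2 and 3 still above siANXA1 (log2 fold change -0.63 ± 0.314 SE, edgeR adjusted p = 0.998). ENST00000474626 of the ribosomal protein gene RPS18, with the 109-base intron, stood at 1185, 1079 and 785 CPM in siControl and 660.3, 537 and 504 CPM in siANXA1 and had a mean of 2179.7 TPM. It was lower in every siANXA1 library, without passing the test (log2 fold change -0.84 ± 0.202 SE, edgeR adjusted p = 0.812).

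Among cytoskeletal genes, ENST00000332858 of the tubulin gene TUBA1B stood at 1143, 1121 and 1018 CPM in siControl and 1399, 1272 and 849.6 CPM in siANXA1, and ENST00000462494 of the actin gene ACTB at 818, 1296 and 985 CPM in siControl and 1173, 903 and 1008 CPM in siANXA1. In both, the groups overlapped. ENST00000490912 of HNRNPA2B1, an RNA-binding protein of the hnRNP family, stood at 829, 876 and 1146 CPM in siControl and 1409, 746 and 1131 CPM in siANXA1, also with overlap. CALM2, which encodes calmodulin, had ENST00000460218 at nearly the same level in every library, at 358, 369 and 331 CPM in siControl and 349.6, 348 and 348 CPM in siANXA1. Of the 15 most abundant, those of EEF1G, EIF3E and RPS24 had means of 684, 343 and 338 CPM and groups that overlapped. ENO1, GAPDH, RPS18, TUBA1B, ACTB, HNRNPA2B1 and other such genes have processed pseudogenes or close paralogs, with which estimated counts may be shared.

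Some abundant members were present in some libraries and nearly absent in others of the same group. ENST00000460378 of EPB41, a protein of the red cell membrane skeleton, stood at 446, 458 and 382 CPM in siControl and 368, 4.102 and 363 CPM in siANXA1. Only siANXA1 replicate 2 was low. ENST00000375710 of LDHA, lactate dehydrogenase, stood at 412, 20.8 and 330.0 CPM in siControl and 519, 17.1 and 482 CPM in siANXA1, low in replicate 2 of both groups. ENST00000548462 of HSP90B1, a chaperone of the endoplasmic reticulum, stood at 80.4, 45.2 and 68.9 CPM in siControl and 179.8, 1219 and 54.9 CPM in siANXA1, high in siANXA1 replicate 2 alone. For RPL4, a ribosomal protein, ENST00000567229 stood at 19.1, 825 and 144 CPM in siControl and 11.5, 572 and 116 CPM in siANXA1, whereas ENST00000561775, named after its values were seen, stood at 749, 0 and 0 CPM in siControl and 535, 0 and 0 CPM in siANXA1. ENST00000561775 was thus high in replicate 1 of both groups alone and ENST00000567229 highest in replicate 2 of both, while in replicate 3 the coding transcript ENST00000307961 held 83.7% of RPL4 in siControl and 80.7% in siANXA1.

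Over the 2116 members of 5 CPM or more, 247 (11.7%) had a library at less than a 20th part of their highest library, against 20.1% of protein coding and 39.6% of nonsense-mediated decay transcripts and 2.03% of genes with all transcripts summed. Summing the retained intron transcripts of each gene lowered the share to 3.46%. Of the 124 members with a single such library, 37 had it in siANXA1 replicate 2, the shallowest library, and between 11 and 22 in each other library. The median SD within groups was 0.526 on the log2 scale for single members and 0.435 for the sum per gene.

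In each library, retained intron transcripts held 6.77, 6.46 and 6.41% in siControl and 7.23, 7.12 and 6.58% in siANXA1 of the counts with a gene. The mean share was 6.55 ± 0.193% (SD, n = 3) in siControl and 6.97 ± 0.349% (SD, n = 3) in siANXA1, and the groups overlapped (difference 0.428 percentage points, two-sided exact permutation p = 0.2, where 0.1 is the smallest that 3 against 3 libraries allow). The labels do not state whether replicates were separate cultures, and p-values then reflect only how far these libraries vary, possibly for technical reasons. Per length, as percent of TPM, the shares were 7.56, 7.16 and 7.41% in siControl and 8.16, 8.06 and 7.53% in siANXA1 (exact permutation p = 0.2). Without the mitochondrially encoded genes the difference in counts was 0.303 percentage points (exact permutation p = 0.3).

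Among 6406 genes with a mean of 100 counts or more and a retained intron count, the median share of a gene's counts in retained intron transcripts was 5.24, 5.33 and 4.996% in siControl and 6.09, 6.17 and 5.38% in siANXA1. Every siANXA1 library lay above every siControl library (means 5.88 ± 0.438% and 5.19 ± 0.171%, SD, n = 3; difference 0.694 points, exact permutation p = 0.1). SiANXA1 replicate 3 lay just above siControl replicate 2. With a minimum of 20 or 500 counts for a gene, the difference was 0.585 or 0.546 points and the exact permutation p 0.2. Within the 2 sides of the first principal component, a comparison chosen after seeing the data, the difference was 0.890 points (siANXA1 replicate 2 against siControl replicates 1 and 2) and 0.740 points (siANXA1 replicates 1 and 3 against siControl replicate 3). Summed nuclear-enriched long noncoding RNAs, which include MALAT1, stood at 904, 757 and 877 CPM in siControl and 1006, 1257 and 1037 CPM in siANXA1, also higher in every siANXA1 library, and their part in the result was not tested. In bulk RNA, a different mix of cells and a different retention per cell cannot be told apart.

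**Figure D2:**
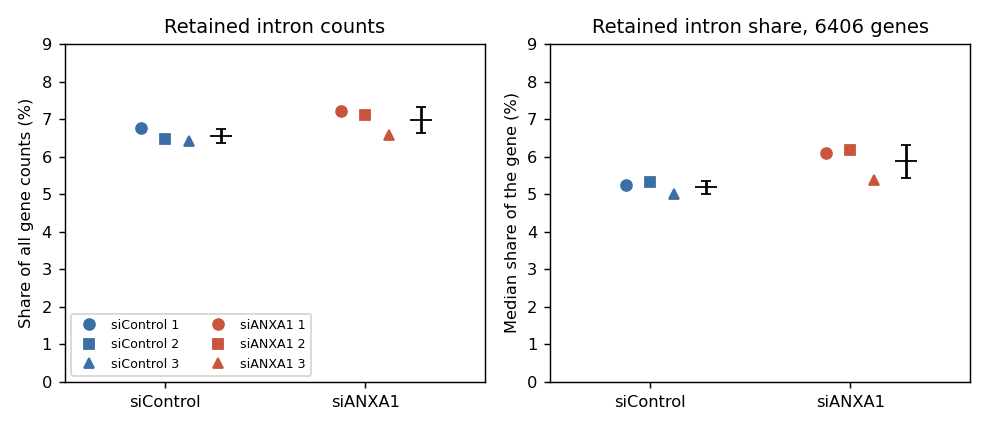
Retained intron transcripts as percent of all counts with a gene (left) and the median over 6406 genes of the percent of a gene's counts in retained intron transcripts (right), 1 point per library, with the mean and SD of each group in black. The groups overlap on the left, and on the right the 3 siANXA1 libraries lie between 5.38% and 6.17%, above the siControl libraries.

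Of the 28087 transcripts, 12992 from 5493 genes had enough counts to be tested singly, and 0 passed an adjusted p of 0.05 in edgeR's quasi-likelihood test over all 58702 transcripts. In that test 0.0017% of all transcripts passed. At an unadjusted p under 0.05 there were 504 retained intron transcripts (3.88%), below the 4.69% of all transcripts. Of these 296 were higher and 208 lower in siANXA1, but the split was 394 and 162 with scaling by library size alone and 338 and 379 without a filter on low counts, and the count ran from 320 (without siControl replicate 1) to 840 (without siControl replicate 3) when single libraries were left out. DESeq2 called 87, 44 higher and 43 lower, where it called 1.15% of all transcripts, and limma-voom called 0. In counts simulated at the spread of these libraries, edgeR and limma called none of the transcripts that had been changed, so a count of 0 here does not show that levels were alike. The median log2 fold change was 0.10 over retained intron transcripts and 0.00 over all transcripts, and 56.7% and 50.01% of the values were positive. Without siANXA1 replicate 2 the median over retained intron transcripts was 0.06 and 52.9% of their values were positive.

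Groups did not overlap for 980 retained intron transcripts that were higher in every siANXA1 library (7.54%) and 565 that were lower (4.35%). Over all transcripts tested, 5.9% were higher and 6.45% were lower in this way (12.4% in all). Higher values outnumbered lower ones among minor transcripts. Of the 8519 members that held under 5% of their gene's counts, 8.37% were higher and 3.18% lower in every siANXA1 library. For 15400 transcripts of other biotypes at that share of their gene, the values were 6.01% and 5.31%. Among the 4085 members with 5% to 50% of their gene, 6.02% were higher and 6.44% lower, and among the 388 with over 50%, 5.41% and 7.99%. By level, the 517 members of 20 CPM or more had 6.38% higher and 8.12% lower. Whole-intron members (7.66% and 4.74%) and members with part of an intron (7.48% and 4.10%) each had more higher than lower values, and kept introns of 150 bases or less gave 7.97% and 3.98%. Members of 1 gene share reads, so these transcripts are not independent.

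**Figure D3:**
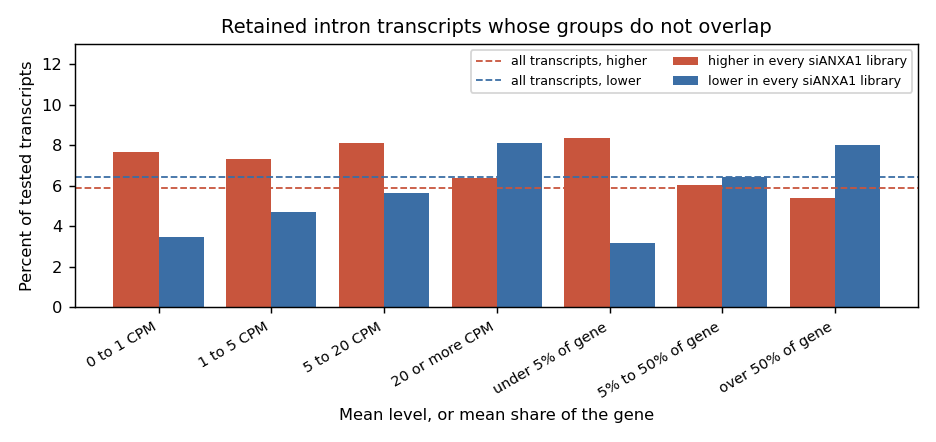
Percent of tested retained intron transcripts (vertical axis) whose 3 siANXA1 values all lay above (red) or all below (blue) the 3 siControl values, by mean CPM and by mean share of the gene (horizontal axis). Dashed lines give the percent over all 58702 transcripts tested, 5.9% higher and 6.45% lower, and the red bar exceeds the blue most in transcripts under 5% of their gene.

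The 1 transcript past the threshold was ENST00000366525 of HNRNPU (chr1:244853690-244862950, minus strand, 2851 bases), tested as usage, the log2 ratio of a transcript's counts to those of the gene's other transcripts. HNRNPU encodes hnRNP U, an abundant nuclear protein that binds RNA and chromatin and takes part in splicing. The transcript keeps the 84-base intron shown above. Its level was 1.57, 2.79 and 2.98 CPM in siControl and 292, 166 and 524 CPM in siANXA1, and its share of the HNRNPU counts was 0.198, 0.336 and 0.238% in siControl and 20.4, 18.6 and 38.6% in siANXA1. The siANXA1 libraries lay far above the siControl libraries on both scales. Usage rose by 7.04 ± 0.523 (SE) on the log2 scale (limma adjusted p = 0.0259 over 26637 transcripts, of which 0.109% passed). It was the 1 retained intron transcript called of 4276 tested for usage, where edgeR's diffSpliceDGE called 11 of these (0.257%), HNRNPU among them, and 1.25% of all transcripts. For usage 281 members (6.57%) were higher and 221 (5.17%) lower without overlap, against 5.44% and 5.86% of all transcripts tested (11.3% together). The level of the HNRNPU transcript itself did not pass (log2 fold change 7.06 ± 0.622 SE, edgeR adjusted p = 0.181). The usage call ended when single libraries were left out, namely siControl replicate 1 (limma adjusted p = 0.112), 2 (0.0794) or 3 (0.0599), or siANXA1 replicate 1 (0.0546). It also ended with a term for the side of the first principal component, added once the data had been seen (limma adjusted p = 0.158). The usage difference stayed between 6.58 and 7.31 in these and the other alternatives run.

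HNRNPU as a gene stood at 792, 829 and 1249 CPM in siControl and 1433, 894 and 1357 CPM in siANXA1, and its 10 retained intron transcripts together held 23.6, 15.7 and 14.1% in siControl and 73.3, 59.5 and 61.7% in siANXA1 of its counts (log2 difference in odds 3.14 ± 0.404 SE, limma adjusted p = 0.183). The groups did not overlap, with siControl replicate 1 the highest of its group. ENST00000476241, which keeps the next intron, of 1986 bases, stood at 105, 56.1 and 106 CPM in siControl and 684, 123 and 181 CPM in siANXA1, highest in siANXA1 replicate 1. In the opposite direction, ENST00000640056, an HNRNPU transcript annotated to nonsense-mediated decay and named after its values were seen, stood at 434, 359 and 581 CPM in siControl and 0, 0 and 0 CPM in siANXA1. Of the counts of transcripts that either contain or splice the 84-base intron, those that contain it made up 0.231, 0.379 and 0.267% in siControl and 21.2, 19.9 and 42.5% in siANXA1. Exchange of reads between such overlapping annotations was not tested.

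No other member named by size of change passed an adjusted p of 0.05 in edgeR, or in limma's usage test with shares from 5% to 95%, which did not include FXR1. EMC1, a subunit of the membrane protein complex of the endoplasmic reticulum, had ENST00000461353, which keeps the penultimate intron, at 0.9704, 1.08 and 1.53 CPM in siControl and 29.5, 9.69 and 18.5 CPM in siANXA1. Its groups did not overlap (log2 fold change 4.01 ± 0.566 SE, edgeR adjusted p = 0.397; usage log2 difference 3.72 ± 0.4003 SE, limma adjusted p = 0.0857), and its share of EMC1 counts was 0.667, 0.838 and 0.926% in siControl and 12.6, 7.598 and 9.67% in siANXA1. A more abundant EMC1 retained intron transcript, ENST00000480380, picked out with the data in view, went the opposite way. It stood at 37.0, 36.0 and 56.0 CPM in siControl and 20.4, 21.9 and 20.3 CPM in siANXA1. Of EMC1 counts it held 25.4, 27.8 and 33.8% in siControl and 8.67, 17.2 and 10.6% in siANXA1. The rise of ENST00000461353 thus does not stand for all retained intron transcripts of EMC1. ATAD3B, a mitochondrial membrane ATPase with close paralogs, had ENST00000472194 at 0.896, 1.08 and 3.01 CPM in siControl and 29.9, 25.8 and 13.3 CPM in siANXA1 (log2 fold change 3.79 ± 0.678 SE, edgeR adjusted p = 0.506). For WDR6, a WD-repeat protein, ENST00000471162 stood at 0.796, 1.11 and 0.962 CPM in siControl and 10.6, 11.6 and 6.94 CPM in siANXA1 (log2 fold change 3.34 ± 0.427 SE, edgeR adjusted p = 0.338), but its share of the gene, 19.2, 17.3 and 7.69% in siControl and 45.8, 36.2 and 7.06% in siANXA1, overlapped between the groups, and the gene itself was higher in every siANXA1 library.

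HBG1 encodes a fetal gamma globin and is nearly identical to HBG2, with which reads may be shared. Its ENST00000648735, which keeps the second intron, stood at 7.29, 9.21 and 15.8 CPM in siControl and 164, 95.6 and 34.3 CPM in siANXA1 (log2 fold change 3.18 ± 0.669 SE, edgeR adjusted p = 0.642). The gene stood at 94.3, 98.9 and 213 CPM in siControl and 862, 332 and 243 CPM in siANXA1, also higher in every siANXA1 library, and the retained intron share of HBG1 was 7.73, 9.31 and 7.43% in siControl and 19.01, 28.8 and 14.1% in siANXA1, again without overlap (limma adjusted p = 0.932). TBC1D10B, a GTPase-activating protein for Rab proteins, had ENST00000478158 at 1.92, 1.47 and 3.46 CPM in siControl and 4.14, 3.71 and 45.6 CPM in siANXA1. SiANXA1 replicate 3 carried that difference, since the log2 fold change of 2.96 fell to 0.78 without it.

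On the lower side, ENST00000476672 of FXR1, an RNA-binding protein related to the fragile X protein, had 485, 411 and 242 counts in siControl and 2, 1 and 1 in siANXA1. As CPM it stood at 12.1, 10.6 and 7.28 CPM in siControl and 0.04502, 0.0436 and 0.0267 CPM in siANXA1. Summed over the libraries, siControl exceeded siANXA1 266-fold (exact 95% interval 103 to 977, counting error only), and the transcript did not pass (edgeR adjusted p = 0.150). FXR1 as a gene stood at 223, 216 and 168 CPM in siControl and 163, 211 and 167 CPM in siANXA1, so the transcript was never more than 5.40% of it. With shares from 1% to 99% allowed, an alternative in which 0.104% of 48814 transcripts passed the usage test, it was tested and passed (usage log2 difference -7.47 ± 0.3704 SE, limma adjusted p = 0.00727), as did HNRNPU and ENST00000527741 of EEF1D, the last named after its values were seen. ENST00000473770 of PISD, which makes phosphatidylethanolamine in mitochondria, stood at 10.3, 8.43 and 14.2 CPM in siControl and 1.01, 0 and 0.0801 CPM in siANXA1 and held 55.5, 40.7 and 60.4% in siControl and 2.27, 0 and 0.391% in siANXA1 of PISD counts (log2 fold change -4.86 ± 1.55 SE, edgeR adjusted p = 0.998). It was low in all 3 siANXA1 libraries and at 0 in replicate 2, and the log2 fold change was -7.83 without siANXA1 replicate 1. Another retained intron transcript of PISD contains the same intron. The 2 together had 504, 424 and 521 counts in siControl and 510, 86 and 72 in siANXA1, which overlapped. Of the counts of transcripts that contain or splice this intron, they made up 74.6, 54.4 and 69.6% in siControl. In siANXA1 they made up 26.2, 15.7 and 9.90%, lower in every library.

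ENST00000644356 of CHD4, the remodeller of the NuRD complex, stood at 138, 99.5 and 182 CPM in siControl and 31.3, 0 and 0.827 CPM in siANXA1. All 3 siANXA1 libraries were lower, over a wide range, and the log2 fold change of -3.70 became -8.34 without siANXA1 replicate 1. CNN2, an actin-binding calponin, had ENST00000564572 at 2.31, 16.4 and 44.7 CPM in siControl and 1.33, 0.742 and 1.201 CPM in siANXA1, and R3HDM2, a protein with an R3H nucleic acid-binding domain, had ENST00000393811 at 5.32, 7.07 and 23.6 CPM in siControl and 1.598, 2.400 and 0.667 CPM in siANXA1. In both, siControl replicate 3 was the highest, and without it the log2 fold change went from -4.27 to -3.08 for CNN2 and from -2.95 to -1.995 for R3HDM2. Of the counts of transcripts that contain or splice the kept CNN2 intron, containing ones made up 13.4, 68.9 and 89.0% in siControl. In siANXA1 they made up 100, 7.98 and 26.2%, so at the intron the groups overlapped. For EIF2AK4, which encodes the amino acid sensor kinase GCN2, ENST00000558629 stood at 3.76, 35.98 and 2.53 CPM in siControl and 1.44, 1.79 and 2.46 CPM in siANXA1. There siControl replicate 2 was high and the other 2 siControl libraries were barely above siANXA1, so that the log2 fold change of -2.89 became -0.74 without siControl replicate 2. None of these 4 passed (edgeR adjusted p from 0.903 for CNN2 to 0.998 for CHD4 and EIF2AK4).

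**Figure D4:**
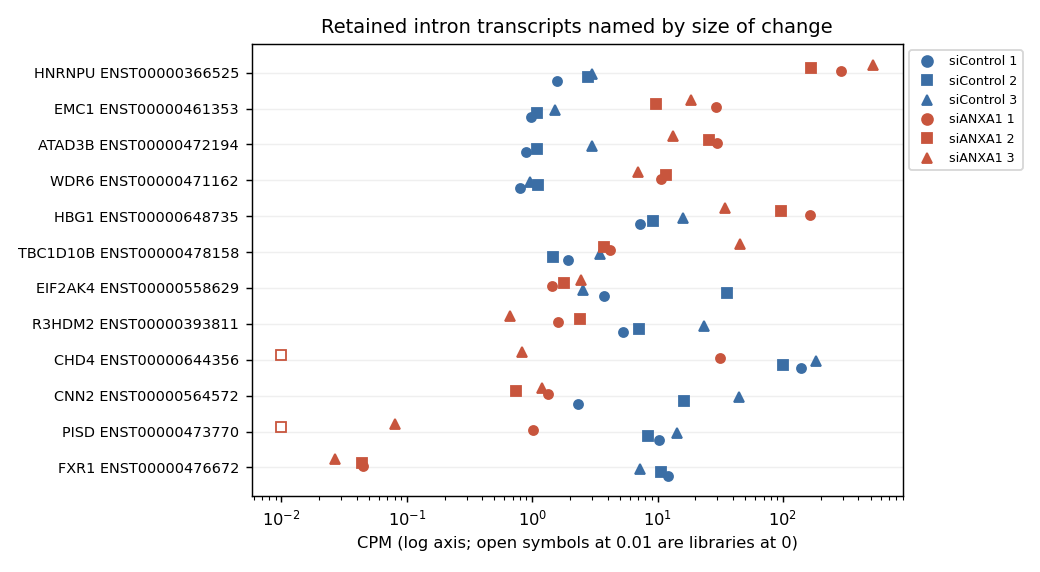
Level in CPM on a log axis of the 12 retained intron transcripts named by size of change, 1 point per library (blue siControl, red siANXA1, symbols for replicates 1 to 3), with open symbols at 0.01 for libraries at 0. HNRNPU and FXR1 show the widest gaps between the groups, and TBC1D10B and EIF2AK4 have 1 library far from the other 5.

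Summed per gene, the retained intron share was tested in 3391 genes against the rest of the gene's counts. 0 genes passed (limma adjusted p over 11805 combinations of gene and biotype, of which 0.0339% passed), and 152 (4.48%) were under an unadjusted p of 0.05, 95 higher and 57 lower, below the 5.24% of all combinations. EdgeR's diffSpliceDGE called 1 (NUMA1, named after its values were seen), where it called 0.136% of all combinations. The groups did not overlap for 292 genes higher (8.61%) and 131 genes lower (3.86%) in siANXA1, where all biotypes gave 6.01% and 5.97% (12% in all). The difference was positive in 2022 and negative in 1369 genes, with a median of 1.15 percentage points. Shares within a gene do not depend on library scaling.

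The genes with the largest higher shares are given first. SRPK1, a kinase that phosphorylates SR proteins, had 20.5, 52.4 and 15.7% in siControl and 59.3, 89.4 and 97.7% in siANXA1 of its counts in retained intron transcripts (log2 difference in odds 4.42 ± 1.34 SE, limma adjusted p = 0.9002). SiControl replicate 2, at 52.4%, came close to siANXA1 replicate 1, at 59.3%. Nearly all of it was ENST00000346162, which keeps the first coding intron, at 71.7, 188 and 84.5 CPM in siControl and 294, 339 and 478 CPM in siANXA1. Of the counts of transcripts that either contain or splice this intron, those that contain it made up 68.8, 52.0 and 15.2% in siControl. In siANXA1 they made up 59.1, 89.1 and 97.3%, so at the intron the groups overlapped. In siControl replicate 1, 70.7% of SRPK1 counts lay in the coding transcript ENST00000361690, which neither contains nor splices it. SRSF4, an SR protein, had 26.04, 27.5 and 79.6% in siControl and 87.9, 87.2 and 83.98% in siANXA1, with siControl replicate 3 beside the siANXA1 libraries. The gene SRSF4 stood at only 19.8, 17.4 and 122 CPM in siControl and 147, 152 and 112 CPM in siANXA1, and its share difference rested on siControl replicates 1 and 2, where the gene was low.

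TOMM22, a receptor of the mitochondrial import complex, has 1 retained intron transcript, which held 6.06, 16.1 and 5.299% in siControl and 71.7, 52.1 and 53.1% in siANXA1 of its counts (log2 difference in odds 4.04 ± 0.633 SE, limma adjusted p = 0.326). The groups were far apart, and the coding transcript ENST00000216034 stood at 66.8, 42.8 and 122 CPM in siControl and 22.6, 23.5 and 36.8 CPM in siANXA1. ASAH1, the lysosomal acid ceramidase, had 26.2, 26.7 and 34.4% in siControl and 63.8, 80.1 and 53.4% in siANXA1, and SIRT2, an NAD-dependent deacetylase, had 36.7, 47.02 and 21.3% in siControl and 66.1, 72.1 and 76.8% in siANXA1. For neither gene did the groups overlap. NUP88, of the nuclear pore, had 63.9, 19.6 and 80.3% in siControl and 88.7, 94.4 and 81.1% in siANXA1, where siControl replicate 3 and siANXA1 replicate 3 were nearly level. MLX, a partner of glucose-sensing transcription factors, had 50.6, 18.8 and 6.78% in siControl and 63.1, 51.2 and 53.3% in siANXA1, where siControl replicate 1 was nearly level with siANXA1 replicate 2.

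Among lower shares, SLC35F5, a member of the SLC35 family of solute carriers, had 88.6, 75.6 and 90.1% in siControl and 38.8, 39.04 and 38.3% in siANXA1 (log2 difference in odds -3.25 ± 0.523 SE, limma adjusted p = 0.343). Its retained intron transcripts were not fewer. Their summed level was 10.5, 10.01 and 11.01 CPM in siControl and 18.5, 13.8 and 17.2 CPM in siANXA1, while the coding transcript ENST00000245680 stood at 0.249, 0.0258 and 0.1504 CPM in siControl and 24.97, 18.5 and 24.2 CPM in siANXA1. The lower share thus came with a coding transcript that was near 0 in siControl. PISD had 68.9, 52.9 and 68.4% in siControl and 25.9, 46.3 and 12.4% in siANXA1, and MPC1, of the mitochondrial pyruvate carrier, had 92.7, 58.2 and 97.6% in siControl and 42.8, 50 and 45.3% in siANXA1, with only 0.0873 CPM for the gene in siANXA1 replicate 2. In both genes the summed retained intron level overlapped between the groups. For PISD it was 12.8, 11.0 and 16.1 CPM in siControl and 11.6, 11.3 and 2.54 CPM in siANXA1. For MPC1 it was 20.5, 25.4 and 9.84 CPM in siControl and 25.9, 0.0436 and 25.7 CPM in siANXA1. The coding MPC1 transcript ENST00000360961 stood at 1.62, 0.516 and 0.241 CPM in siControl and 34.6, 0 and 31.0 CPM in siANXA1.

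DIABLO, a mitochondrial protein that promotes apoptosis, had 70.2, 69.4 and 67.9% in siControl and 63.7, 28.98 and 3.14% in siANXA1, and GIGYF2, a translational repressor, had 70.1, 66.9 and 72.4% in siControl and 48.9, 62.9 and 1.12% in siANXA1. In each, siANXA1 replicate 3 was the lowest and another siANXA1 library lay within 5 points of siControl. BRF1, a subunit of the RNA polymerase III initiation factor, had 34.2, 64.6 and 67.4% in siControl and 24.7, 31.7 and 18.04% in siANXA1. None of these 14 genes passed (limma adjusted p from 0.183 for HNRNPU to 0.900).

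**Figure D5:**
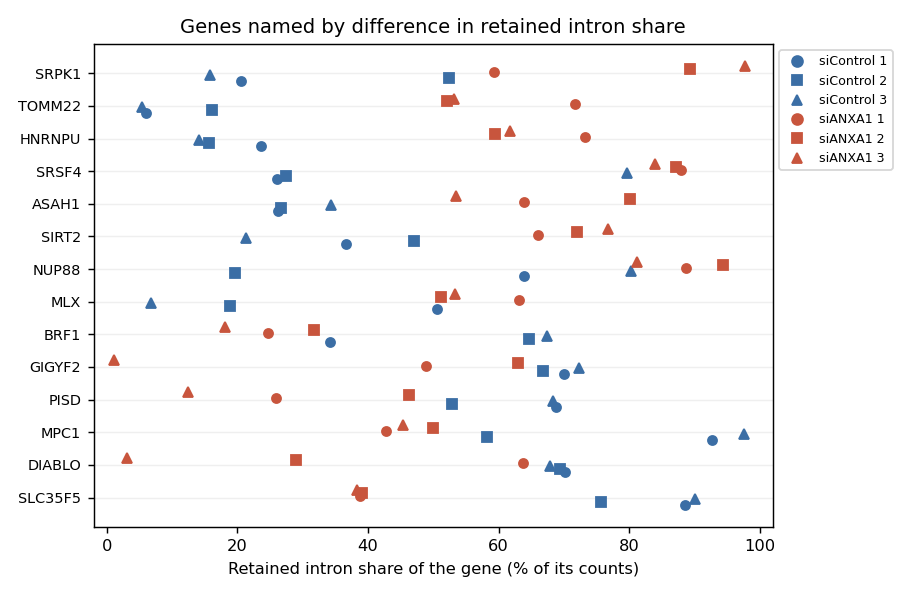
Percent of each gene's counts in retained intron transcripts (horizontal axis) for 14 genes named by the size of the difference, 1 point per library (blue siControl, red siANXA1, symbols for replicates 1 to 3). HNRNPU, TOMM22 and SLC35F5 show separated groups, whereas SRSF4 and NUP88 have a siControl library next to the siANXA1 libraries.

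PI4KA and H2AFZ, both named after their values were seen, had groups that did not overlap. PI4KA, a phosphatidylinositol kinase with copies that can share its reads, had 78.9, 68.1 and 57.7% in siControl and 97.8, 97.8 and 98.7% in siANXA1 in retained intron transcripts (log2 difference in odds 4.53 ± 0.502 SE, limma adjusted p = 0.106). Its coding transcript ENST00000255882 stood at 12.3, 12.5 and 27.1 CPM in siControl and 0, 0.0436 and 0 CPM in siANXA1, near 0 in siANXA1, and the members differed in direction, without passing edgeR. ENST00000477245 stood at 37.5, 19.2 and 25.4 CPM in siControl and 7.59, 8.07 and 5.74 CPM in siANXA1, ENST00000492581 at 6.72, 5.03 and 8.18 CPM in siControl and 12.7, 22.8 and 21.5 CPM in siANXA1 and ENST00000485963 at 1.39, 0.954 and 1.89 CPM in siControl and 7.38, 8.205 and 10.5 CPM in siANXA1. H2AFZ encodes the histone variant H2A.Z, and its ENST00000511319 stood at 86.9, 72.7 and 69.6 CPM in siControl and 24.02, 9.43 and 9.58 CPM in siANXA1, lower in every siANXA1 library (log2 fold change -2.41 ± 0.459 SE, edgeR adjusted p = 0.5400; usage log2 difference -2.73 ± 0.361 SE, limma adjusted p = 0.165), while the coding transcript ENST00000296417 stood at 513, 499.8 and 488 CPM in siControl and 786, 438 and 530.0 CPM in siANXA1.

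For 226 genes, retained intron transcripts held over 50% of the counts in every library, and 29 of these were among the 1484 genes of 100 CPM or more with a retained intron count. Another 920 genes passed 50% in at least 1 library but not in all. Of the 29, ARGLU1, a splicing modulator with a known detained intron, had 87.99, 88.2 and 89.4% in siControl and 86.7, 89.1 and 87.8% in siANXA1. For HNRNPA2B1 the values were 55.3, 56.9 and 50.7% in siControl and 60.1, 52.7 and 55.2% in siANXA1, and for TRA2B, an SR-like splicing regulator, 71.8, 72.6 and 53.3% in siControl and 66.03, 63.3 and 55.5% in siANXA1. GNL3, the nucleolar protein nucleostemin, had 89.4, 85.9 and 84.7% in siControl and 82.9, 83.5 and 86.6% in siANXA1, and UBE2G2, a ubiquitin-conjugating enzyme, had 87.01, 85.7 and 83.5% in siControl and 83.5, 85.7 and 82.7% in siANXA1. FARSA, the alpha subunit of phenylalanyl-tRNA synthetase, whose 96-base intron is shown above, had 65.8, 67.9 and 66.4% in siControl and 64.7, 69.5 and 64.4% in siANXA1. TEX261, named after its values were seen, had 78.5, 81.2 and 76.3% in siControl and 61.96, 64.5 and 65.9% in siANXA1, lower in every siANXA1 library. CPNE3, HERPUD1 and EXOC5, also named after their values were seen, were likewise lower in every siANXA1 library. No gene of the 29 was higher in every siANXA1 library. Over the 3391 genes tested for this share, 8.61% were higher and 3.86% lower in every siANXA1 library. Over all biotypes the values were 6.01% and 5.97%. The 29 genes are few and their directions were looked at after the fact, so no trend is drawn from them.

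Lists of parent genes were compared by counts alone, and 0 of their retained intron transcripts passed edgeR. Over all tested retained intron transcripts, 56.7% of the log2 fold changes were positive. The SR proteins and hnRNPs, which select splice sites, had 91 tested transcripts, 68 with a positive and 23 with a negative log2 fold change, and a median of 0.26, and 1 usage call, that of HNRNPU. Retained intron transcripts held 18.1, 18.3 and 19.4% in siControl and 29.5, 22.1 and 25.1% in siANXA1 of the counts of these genes, and without HNRNPU, a choice made after seeing the data, 17.7, 18.5 and 19.9% in siControl and 24.4, 18.8 and 20.9% in siANXA1. The groups then overlapped. The spliceosome and exon-junction components had 151 tested transcripts, 101 with a positive and 50 with a negative log2 fold change, and a median of 0.21, but their share of counts was 17.5, 17.3 and 13.5% in siControl and 16.3, 16.3 and 15.9% in siANXA1, which overlapped. Genes with detained introns and splicing kinases had 79 tested transcripts, 47 with a positive and 32 with a negative log2 fold change, and a median of 0.15, and a share of 33.9, 35.7 and 30.1% in siControl and 45.3, 48.2 and 39.7% in siANXA1, which did not overlap. Without SRPK1 their share was 36.6, 32.9 and 34.3% in siControl and 42.1, 38.7 and 26.97% in siANXA1, and the groups overlapped.

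Of the most abundant members in these lists, ENST00000472226 of ARGLU1 stood at 152, 167 and 153 CPM in siControl and 157, 186 and 158 CPM in siANXA1 and ENST00000497539 of SNRNP200, a helicase of the spliceosome, at 171, 184 and 220.2 CPM in siControl and 229, 148 and 207 CPM in siANXA1, with overlap in both. ENST00000462256 of DDX39B, a helicase for splicing and mRNA export, stood at 133, 105 and 158 CPM in siControl and 41.2, 70.5 and 88.7 CPM in siANXA1 and was lower in every siANXA1 library (edgeR adjusted p = 0.998). Another retained intron transcript of DDX39B contains the same intron, of 2455 bases. Of the counts of transcripts that either contain or splice this intron, those that contain it made up 72.3, 75.9 and 72.8% in siControl. In siANXA1 they made up 74.5, 77.7 and 75.01%, so at the intron the groups overlapped and the share was not lower. OGT, which adds O-linked N-acetylglucosamine to proteins and is known for a detained intron, had ENST00000488174 at 92.7, 33.3 and 56.3 CPM in siControl and 51.4, 28.3 and 24.8 CPM in siANXA1, with overlap. In SNHG3, a host of small nucleolar RNAs, ENST00000437681 stood at 26.4, 24.1 and 112 CPM in siControl and 125, 47.6 and 133 CPM in siANXA1. SMG1, the kinase that starts nonsense-mediated decay, had ENST00000563448 at 17.7, 13.4 and 21.3 CPM in siControl and 17.6, 16.6 and 23.2 CPM in siANXA1, a like level in every library. Its share of SMG1 counts varied widely within both groups, at 66.3, 5.57 and 5.83% in siControl and 6.4, 52.6 and 58.7% in siANXA1.

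The snoRNA host genes, whose introns release small nucleolar RNAs, had 119 tested transcripts, 95 with a positive and 24 with a negative log2 fold change, and a median of 0.48. Genes of cytosolic ribosomal proteins had 205 tested transcripts, 142 with a positive and 63 with a negative log2 fold change, and a median of 0.32, and the factors of nonsense-mediated decay and nuclear RNA surveillance had 38 tested transcripts, 31 with a positive and 7 with a negative log2 fold change, and a median of 0.24. All 3 medians exceeded the 0.10 of all retained intron transcripts. So did those of the SR proteins and hnRNPs (0.26), the spliceosome and exon-junction components (0.21) and the detained-intron genes and splicing kinases (0.15). The lists were not matched to all members by share of the gene. Retained intron transcripts under 5% of their gene had a median of 0.154, with 60.3% of values positive. The detained-intron list, at 0.153, did not exceed that. In the counts of the snoRNA hosts, the retained intron share was 5.89, 8.52 and 9.25% in siControl and 10.6, 7.895 and 11.3% in siANXA1. For ribosomal proteins it was 9.59, 9.78 and 10.3% in siControl and 11.2, 7.94 and 9.56% in siANXA1. For the decay and surveillance factors it was 7.17, 5.68 and 6.43% in siControl and 6.29, 8.37 and 7.15% in siANXA1. In each of these lists the groups overlapped. ATF4 targets and aminoacyl-tRNA synthetases, genes of the amino acid response, had 96 tested transcripts, 49 with a positive and 47 with a negative log2 fold change, and a median of 0.01. The annexins had 12 tested transcripts, 5 with a positive and 7 with a negative log2 fold change, and a median of -0.05, and their most abundant member, ENST00000509648 of ANXA5, stood at 25.7, 30.1 and 18.8 CPM in siControl and 22.9, 29.7 and 14.01 CPM in siANXA1.

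For comparison, nonsense-mediated decay and processed transcripts of all genes, coding or noncoding, gave the following values. By counts, nonsense-mediated decay transcripts held 2.65, 2.698 and 2.53% in siControl and 2.54, 2.31 and 2.596% in siANXA1 (exact permutation p = 0.3) and processed transcripts 2.12, 2.12 and 1.94% in siControl and 2.31, 2.100 and 2.09% in siANXA1 (exact permutation p = 0.6), and in both the groups overlapped. Per length, nonsense-mediated decay transcripts held 2.75, 2.74 and 2.73% in siControl and 2.66, 2.56 and 2.68% in siANXA1 of TPM, lower in every siANXA1 library (exact permutation p = 0.1). Per length, processed transcripts held 3.25, 3.296 and 3.18% in siControl and 3.67, 3.38 and 3.32% in siANXA1, higher in every siANXA1 library (exact permutation p = 0.1). As single transcripts, 5.84% of the nonsense-mediated decay transcripts were higher and 6.39% lower without overlap, against 7.54% and 4.35% of retained intron transcripts.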

How the data were processed

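Per the labels' protocols, libraries came from an Illumina TruSeq kit. The authors deposited expected counts, whole numbers without normalization, for each transcript with its gene, biotype, position and length. How reads were aligned and counted, and with which strand setting, is not given in the sources used here, so reads of overlapping and antisense genes cannot be told apart. Per the submitters' processing notes the build is mm10 (mouse), although all 206601 rows with a gene were found in GENCODE release 29 (human, GRCh38), 206568 with the same position. The 16014 rows without a gene (16.9% to 17.7% of counts) were left out.

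Biotypes came from the deposited annotation, and kept introns from GENCODE release 29. A whole intron is one that a coding transcript of the gene splices and that lies inside an exon of the member. Introns under 30 bases were ignored. The fits covered the whole table with group as the only term. Levels were tested with edgeR 4.0.16 (filterByExpr, TMM, robust quasi-likelihood), usage and gene shares with limma 3.58.1 on log2 ratios with 0.5 added to each part, for genes with a mean of 100 counts or more and shares from 5% to 95%. P-values were two-sided and adjusted by Benjamini-Hochberg over all features tested. On simulated counts with known changes the fits recovered changed transcripts at a small spread, but none at the spread of these libraries, so the tests had little power. The design had assumed counts, and the deposited expected counts were already whole and needed no rounding. Members, lists and tests were chosen with earlier results of these data known.

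Named were the 15 most abundant members, 6 per direction past an adjusted p of 0.05 or else with groups that did not overlap, 5 CPM or more and the largest fold change, 8 genes per direction by difference in share (20 CPM or more), and 3 members per list. Some items under this rule are not reported here. Alternatives were other scalings, filters and tools (DESeq2 1.42.0, limma-voom, diffSpliceDGE), other limits on counts and shares, a replicate block and each library left out. Samples with the same replicate number correlated at -0.04, 0.10 and 0.12, so the numbers were not taken as pairs.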

Additional observations from a re-analysis of the deposited data

How the results depend on the processing

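The count of retained intron transcripts called by level was 0 in edgeR under every alternative run, but 87 in DESeq2. The count called by usage (1) became 3 with shares from 1% to 99% (0.104% of all transcripts passed), 11 with diffSpliceDGE (0.257% of 4276, against 1.25% of all transcripts) and 0 with a term for the side of the first principal component. It ranged from 0 to 4 when single libraries were left out, being 0 without siControl replicate 1 or siControl replicate 2, 2 without siControl replicate 3, 4 without siANXA1 replicate 2 and 3 without siANXA1 replicate 3. The count of genes called for their share (0) became 1 with diffSpliceDGE (0.136% of all combinations passed) and ranged from 0 to 1 when single libraries were left out, being 1 without siControl replicate 3 or siANXA1 replicate 1.

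With the replicate number as a block, the count called by usage was 0 and the HNRNPU transcript ENST00000366525 lost its call (limma adjusted p = 0.532). The block changed no other call of a retained intron transcript or gene. Over all biotypes it left 0 calls, against 29 by usage, 4 by share of the gene and 1 by level without it. Not every same-numbered pair of libraries correlated above 0.1.

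No direction of the members and genes named by size of change reversed under the alternatives run. In DESeq2, 9 of the 12 members named by size of change passed, with adjusted p from 1.18e-25 for HNRNPU to 0.0457 for R3HDM2. DESeq2 called 1.15% of all transcripts tested and 0.67% of the retained intron transcripts. The 12 had been picked from these same data for large changes, so their passing is no independent evidence. Members below about 1 CPM rest on few counts, and estimated counts carry an assignment error that the tests do not see.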
